A study of Mus musculus with 8 samples.

Results

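The genes described here are 10 members of the MHC class II antigen presentation pathway, chosen by name: Ciita, Cd74, H2-Aa, H2-Ab1, H2-Eb1, H2-DMa, H2-DMb1, Ctss, Ifi30 and Lgmn. Each was found once by its Ensembl gene identifier among the 48440 genes of the deposited table. RNA was sequenced from jejunal epithelial cells of 8 female mice carrying the Sox9-EGFP reporter on a C57BL/6J background, and only cells with a low reporter signal (Sox9-EGFP Low) were used, after cells positive for CD45, CD31, Annexin-V or Sytox blue had been gated out. The mice were 4 pairs (A to D) of littermates raised germ-free. In each pair 1 animal was conventionalized at 8 to 10 weeks of age, by transfer to another animal facility and gavage with fecal slurry from conventionally raised Sox9-EGFP mice, and its littermate stayed germ-free. Tissue was taken after 2 weeks, so both groups share the reporter, sex, strain and a germ-free upbringing, and the move between facilities cannot be told apart from the microbiota. The question was whether class II genes, and Ciita with its targets, differed between conventionalized and germ-free littermates.

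MHC class II molecules are heterodimers that display peptides from endosomes to CD4+ T cells. Their chains assemble in the endoplasmic reticulum with the invariant chain, which is then degraded in endosomes until only a short piece fills the groove, and the DM molecule exchanges that piece for an antigenic peptide. Professional antigen-presenting cells make class II all the time, whereas intestinal epithelial cells, including crypt base stem cells, can make it under the influence of interferon-gamma. Transcription of the class II genes depends on CIITA, a coactivator that binds no DNA itself and is recruited by the RFX complex, CREB and NF-Y sitting on the X and Y boxes of their promoters.

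The 6 class II genes that CIITA controls (Cd74, H2-Aa, H2-Ab1, H2-Eb1, H2-DMa and H2-DMb1) varied together from library to library, and no correlation of Ciita with them was detected. Their group means were higher in conventionalized animals, with log2 differences of 0.997 to 1.38, while that of Ciita was 0.00. Without 1 germ-free library, that of pair C, the differences of the 6 were 0.36 to 0.66. Pearson's r of Ciita with the 6 was then 0.426 to 0.673, and none passed. That library was the lowest of the 8 for all 6 genes and for 49.4% of all tested genes. No member passed the test at this number of animals: limma called 0 of the 10 higher and 0 lower, against 1.16% of 10053 tested genes called higher and 3.76% lower (4.92% in either direction). At an unadjusted p under 0.05, 3 members (H2-DMa, Ctss and Lgmn) were counted, against 27.8% of all tested genes. With the littermate pair as a block, 1 member, Ctss, was called higher and 0 lower, against 8.08% and 5.02% of all tested genes (13.1% in either direction).

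Values are CPM (each library scaled to the same total) from the deposited signal after TMM scaling, and fold changes are limma's log2 of conventionalized over germ-free on log2(CPM + 0.5), with their standard error (SE). All 10 members reached the minimum for testing, 10 CPM in at least 4 libraries: Ciita in 5 libraries, H2-Aa, H2-Eb1, H2-DMa, H2-DMb1 and Ctss in 7, and the others in 8. All 10 had a positive log2 fold change, as did 70.2% of all tested genes. In all 4 pairs 3 members (H2-DMb1, Ctss and Lgmn) were higher in the conventionalized littermate, a share not counted over all tested genes. The fold change was above 1 for 6 members, against 11.6% of all tested genes, and the median over the members was 1.19, against 0.32 over all tested genes. With scaling by library size only, the median over all tested genes was 0.09.

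The germ-free and conventionalized libraries are called GF A to GF D and CV A to CV D by their pair, and 2 of them stood apart. GF C had a median correlation of 0.792 with its group, against 0.871 to 0.943 for the other 7 libraries, and the lowest approximate depth, 6209040 reads (the highest was 19139685). It was the lowest of the 8 libraries for 8 members, all except Ciita and Lgmn, and for 49.4% of all tested genes. CV D was the highest for 7 members and for 30.1% of all tested genes. In pair B the germ-free library was the higher one for 6 members and for 45.2% of all tested genes. CV A had 49675 CPM of summed goblet genes, against 1397 to 8016 CPM in the other 7. The sorted cells carried epithelial markers throughout: the summed level of 7 epithelial genes ran from 9714 to 22757 CPM, and 0 of the 7 changed. Of 10 enteroendocrine genes 6 fell in conventionalized animals, of 10 mitosis genes 7 rose, of 8 active stem cell genes 1 rose, of 5 Paneth genes 1 rose, and of 9 tested enterocyte genes 3 fell. None of 7 goblet or 4 tested tuft genes changed in limma. The part of these shifts in the class II values was not tested. In bulk RNA, more cells that express a gene and more RNA per cell cannot be told apart.

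Ciita (ENSMUSG00000022504.9, GRCm38 chromosome 16, 10480059 to 10528418) encodes the coactivator. It was at 7.94, 12.6, 8.04 and 15.7 CPM in CV A to CV D and at 4.59, 10.4, 12.4 and 20.6 CPM in GF A to GF D. The groups overlapped fully: the lowest and the highest library were both germ-free, of pairs A and D. The log2 fold change was 0.00 (SE 0.45, 95% interval -0.96 to 0.97, adjusted p = 0.996 by limma), which leaves room for a change of nearly 1 unit either way. Within pairs Ciita was higher in the conventionalized animal of A (0.73) and B (0.26) and lower in that of C (-0.59) and D (-0.38). The depth behind these values was small, from about 36 reads in GF A to about 235 in CV D.

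Cd74 (ENSMUSG00000024610.14, chromosome 18, 60803848 to 60812652) encodes the invariant chain, which guides new class II molecules to endosomes. Its level was 702, 786, 515 and 2104 CPM in CV A to CV D, and 394, 788, 103 and 570.4 CPM in the germ-free ones. CV D stood above all others and GF C below them, and between these the groups overlapped. The log2 fold change was 1.26 (SE 0.60, 95% interval -0.04 to 2.55, adjusted p = 0.186 by limma, 0.0565 with the littermate block). Littermates of pair B were nearly equal for this gene (log2 difference -0.0024), whereas those of A, C and D differed by 0.83, 2.32 and 1.88.

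**Figure D1:**
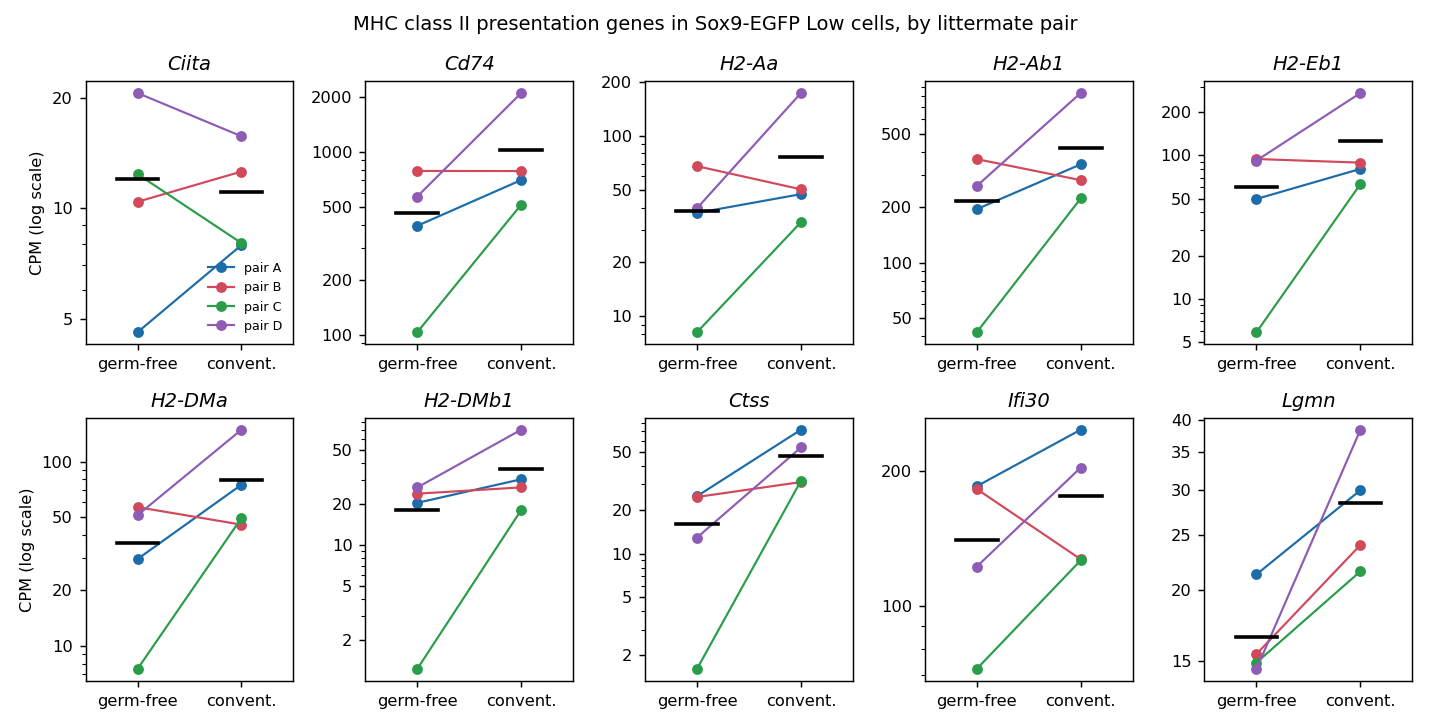
CPM (log scale) of each of the 10 genes in germ-free and conventionalized (convent.) animals; circles are libraries, lines join littermates and black bars are group means (n = 4). For 8 genes the lowest circle is GF C, and the lines of pair B are flat or fall for most genes.

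The classical chains lie next to each other in the MHC on chromosome 17: H2-Ab1 (ENSMUSG00000073421.5, 34257689 to 34269419), H2-Aa (ENSMUSG00000036594.14, 34282744 to 34287823) and H2-Eb1 (ENSMUSG00000060586.10, 34305867 to 34316674). H2-Aa and H2-Ab1 encode the alpha and beta chains of I-A. H2-Eb1 encodes the beta chain of I-E, whose alpha chain gene is defective in C57BL/6 mice, so that its transcript has no partner there.

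H2-Ab1 was at 342, 280.5 and 223 CPM in CV A to CV C and at 833 CPM in CV D. Its germ-free levels were 195, 365, 41.9 and 261 CPM. H2-Aa was at 47.6, 50.6, 33.3 and 172.8 CPM in conventionalized and at 37.4, 67.9, 8.17 and 39.7 CPM in germ-free libraries. Both chains of I-A were thus higher in the germ-free than in the conventionalized littermate of pair B, and higher in the conventionalized littermate of the other 3 pairs. Of all tested genes, 45.2% were higher in the germ-free library of pair B.

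H2-Eb1 was at 80.4, 88.8, 63.1 and 271.5 CPM in conventionalized libraries and at 49.6, 94.2, 5.85 and 91.9 CPM in germ-free ones. Limma gave log2 fold changes of 0.997 for H2-Aa (SE 0.60, adjusted p = 0.266), 1.13 for H2-Ab1 (SE 0.60, adjusted p = 0.223) and 1.37 for H2-Eb1 (SE 0.73, adjusted p = 0.221). With the littermate block the adjusted p-values were 0.1004, 0.0755 and 0.0618 by limma. None passed, and the groups overlapped for all 3 chains.

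Stretches of promoter with letters of the X and Y boxes are shown for 3 members of the MHC. These hold both in this order on the strand of the gene, 10 to 40 bases apart. By the letters AGCAAC named with the lists H2-Eb1 alone would be shown, and the other 2 were added with wider letters chosen after the promoters had been read. The sequences are RefSeq's (GRCm38.p6), written along the strand of the gene, and the capitals mark GNAACT, letters of the X box, and GATTGG, the Y box with its inverted CCAAT.
H2-Aa, chr17:34287855-34287916, minus strand: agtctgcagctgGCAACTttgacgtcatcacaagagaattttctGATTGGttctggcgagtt
H2-Eb1, chr17:34305764-34305824, plus strand: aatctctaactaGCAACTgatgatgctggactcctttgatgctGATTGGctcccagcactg
H2-DMb1, chr17:34153085-34153146, plus strand: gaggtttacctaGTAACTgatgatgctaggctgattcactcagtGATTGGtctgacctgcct
The capitals are 26 bases apart in H2-Aa and H2-DMb1 and 25 in H2-Eb1. The first starts 81, 91 and 94 bases before RefSeq's start of H2-Aa, H2-Eb1 and H2-DMb1. For H2-DMb1 the stretch lies inside the interval that GENCODE gives the gene, which begins at 34153072, so the annotations differ in its start.

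RefSeq's table held 9 promoters of one length for 7 of the 10 members, and none of that length for Ciita, Cd74 and H2-Ab1. On either strand, AGCAAC was in the promoter of 1 of the 7 genes (H2-Eb1) and in 14.8% of 32851 promoters in the table. GATTGG was in those of 4 genes (H2-Aa, H2-DMa, H2-DMb1 and H2-Eb1) and in 16.1% of the table. TGACG, letters of the CREB site next to the X box, was in those of 2 (H2-Aa and Ifi30) and in 20.8% of the table. The wider GNAACT was chosen after the promoters had been read and can overlap AGCAAC. It was in the promoters of 5 genes (H2-Aa, H2-DMa, H2-DMb1, H2-Eb1 and Lgmn) and in 42.8% of the table. GNAACT and GATTGG, on either strand and at any distance, were both in those of 4 genes (H2-Aa, H2-DMa, H2-DMb1 and H2-Eb1) and in 6.79% of the table. GNAACT and GATTGG lay on the strand of the gene, 10 to 40 bases apart, in 81 promoters (0.247%), among them the 3 printed and that of H2-Eb2. This window of distances was also chosen after the promoters had been read, so that the 3 hold the pair by choice. These are matches of letters, and binding was not measured.

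H2-DMa (ENSMUSG00000037649.9, chromosome 17, 34119541 to 34139101) and H2-DMb1 (ENSMUSG00000079547.3, chromosome 17, 34153072 to 34160230) encode the chains of DM, the peptide exchanger. H2-DMa was at 74.9, 45.4, 49.4 and 148.9 CPM in conventionalized and at 29.6, 56.6, 7.48 and 51.1 CPM in germ-free libraries. H2-DMb1 was at 30.4, 26.5, 18.1 and 70.3 CPM against 20.4, 23.8, 1.23 and 26.5 CPM. H2-DMb1 was higher in the conventionalized littermate of all 4 pairs, by 0.15 in pair B and 3.42 in pair C, but its groups overlapped, as did those of H2-DMa.

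The log2 fold change of H2-DMa was 1.30 (SE 0.56, 95% interval 0.10 to 2.50) and that of H2-DMb1 1.38 (SE 0.73, 95% interval -0.20 to 2.97). Limma gave adjusted p = 0.158 and 0.223, and 0.05003 (just above the threshold) and 0.0651 with the littermate block. GF C held about 11 reads of H2-DMb1 and 65 of H2-DMa, so the fold change of pair C rests on few reads. H2-DMb1 has a near-identical neighbour, H2-DMb2, at 0.427 to 7.17 CPM, and the assignment of reads between these paralogs is uncertain.

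Among the 3 processing enzymes the standard error was smaller for Ifi30 and Lgmn than for the chains. That of Ctss (0.65) lay within the range of the chains (0.56 to 0.73). Ctss (ENSMUSG00000038642.10, chromosome 3, 95526786 to 95556403) encodes cathepsin S, the protease that trims the invariant chain in the last step before peptide loading. It was at 71.5, 31.2, 31.8 and 53.9 CPM in conventionalized and at 24.9, 24.6, 1.61 and 12.9 CPM in germ-free libraries. Every conventionalized library was above every germ-free one, a separation that 9.03% of all tested genes showed in the same direction and 5.88% in the other.

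Ctss had the largest log2 fold change of the members, 1.95 (SE 0.65, 95% interval 0.56 to 3.34, adjusted p = 0.0968 by limma), and was higher in the conventionalized littermate of all 4 pairs by 0.34 to 3.94. With the littermate block it passed (adjusted p = 0.0255 by limma). It also passed without GF C, which held about 14 of its reads (log2 fold change 1.11, adjusted p = 0.0251), and with the block and without pair C (1.30, adjusted p = 0.0262). It did not pass in the other fits without 1 library, nor without both CV A and GF C (log2 fold change 0.90, adjusted p = 0.113).

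Lgmn (ENSMUSG00000021190.14, chromosome 12, 102394084 to 102439813) encodes legumain, the asparaginyl endopeptidase of lysosomes. It was at 30.01, 24.0, 21.6 and 38.4 CPM in conventionalized libraries and at 21.3, 15.4, 14.9 and 14.5 CPM in germ-free ones. The groups did not overlap, though the lowest conventionalized library (21.6 CPM) and the highest germ-free one (21.3 CPM) were close. The log2 fold change was 0.75 (SE 0.29, 95% interval 0.13 to 1.38, adjusted p = 0.136 by limma, 0.0958 with the littermate block), with the conventionalized littermate higher in all 4 pairs.

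Ifi30 (ENSMUSG00000031838.7, chromosome 8, 70762774 to 70766663) encodes GILT, the interferon-inducible thiol reductase that opens disulfide bonds of antigens. It was at 248, 127, 126 and 204 CPM in conventionalized and at 185, 182, 72.2 and 122 CPM in germ-free libraries. The groups overlapped, and the log2 fold change was 0.36 (SE 0.37, 95% interval -0.43 to 1.15, adjusted p = 0.514 by limma). Littermates of pair B differed by -0.52 and the others by 0.42 to 0.80.

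**Figure D2:**
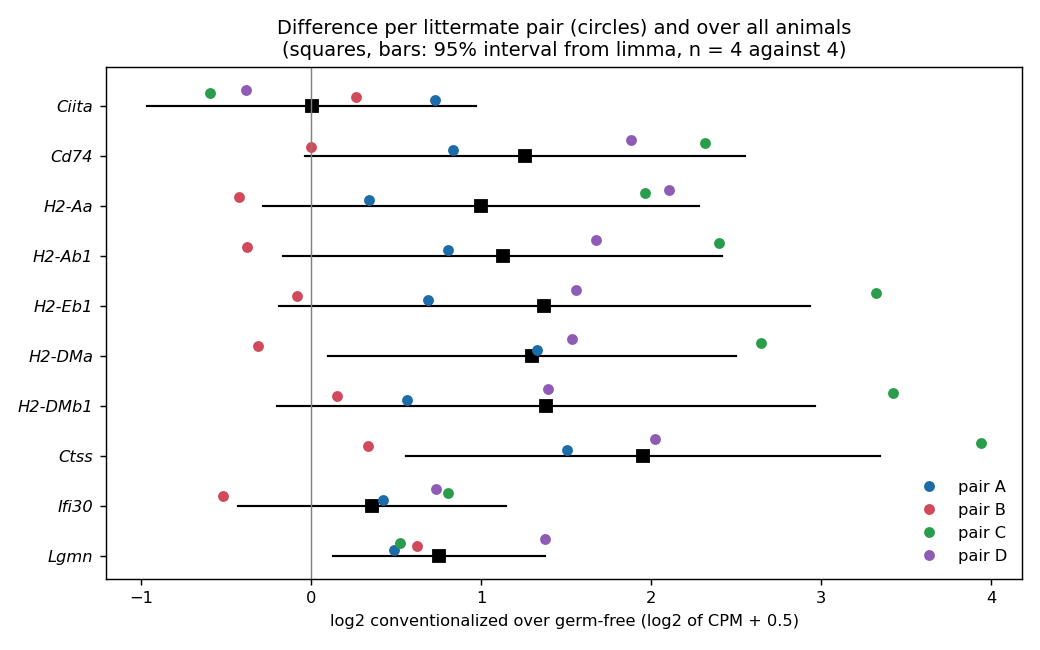
Log2 difference of conventionalized over germ-free for each gene; circles are the 4 littermate pairs, and squares with bars are limma's estimate over all animals with its 95% interval. The squares lie at 0.00 for Ciita and between 0.997 and 1.38 for its 6 targets, with pair B near or below 0 and pair C farthest right for 5 of these.

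Levels of different genes were compared per kilobase of summed exon length, as means over the 8 libraries. That length joins the exons of all annotated transcripts (3798 bases for H2-Aa, 2568 for H2-Ab1). The order and the ratios between genes therefore depend on the annotation and may not hold for the transcripts in these cells. Cd74 led at 444 CPM per kilobase, followed by Ifi30 at 161, H2-Ab1 at 124 and H2-Eb1 at 47.9. Ctss at 23.2, H2-DMa at 16.8, H2-DMb1 at 16.2, H2-Aa at 15.1 and Lgmn at 9.69 came next, and Ciita was lowest at 1.21. Ciita stood below Lgmn in 8 of 8 libraries, H2-Eb1 below H2-Ab1 in 8 and Ifi30 below Cd74 in 7, but each neighbouring pair from Ctss to Lgmn kept this order in only 5 of 8.

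The 6 targets together made up 0.0235% of GF C and 0.281% of CV D, with 0.0650 to 0.1345% in the other 6. On the TMM scale their sums were 168 and 3601 CPM in those 2 libraries and 727 to 1395 CPM in the rest. Per kilobase, Cd74 was 3.09 to 4.29 times H2-Ab1 in all 8 libraries, and H2-Aa was 0.0941 to 0.140 times H2-Ab1. The size of such ratios rests on the summed exon lengths, so only their spread between libraries is read here. H2-Eb1 was 0.311 to 0.466 times H2-Ab1 in 7 libraries and 0.184 times in GF C. H2-DMa per H2-DMb1 varied more than these, from 0.706 to 2.96 with the highest value in GF C, where H2-DMb1 had about 11 reads.

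Over the 8 libraries Pearson's r of log2(CPM + 0.5) ran from 0.942 to 0.991 among the 15 pairs of these 6 genes, as a description of libraries that share depth and cell composition. It was not computed without GF C, the lowest library for all 6. Between the 3 enzymes and the 6 genes r ran from 0.587 to 0.905. The 5 genes outside the members whose pattern was most like the mean of Cd74, H2-Aa, H2-Ab1, H2-Eb1 and H2-DMa were Pcbp2 (r = 0.987), Smyd2 (0.987), Asrgl1 (0.986), Urod (0.985) and Wdr73 (0.984), over 8 libraries and 10053 genes. None of these 5 passed limma (adjusted p = 0.203 to 0.461).

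Whether Ciita changed with its targets was read in 2 ways, across libraries and within pairs. Across the 8 libraries Pearson's r of Ciita with the 6 targets was 0.0657 (H2-DMb1) to 0.208 (Cd74), with exact permutation p = 0.634 to 0.865, two-sided, and adjusted p = 0.865 for each. Spearman's rho was 0.214 to 0.571 (exact permutation adjusted p = 0.601 to 0.619). Without GF A and GF D, which lay farthest from the median of Ciita, r was 0.0149 to 0.264. None of the 6 relations was detected with n = 8 libraries, which leaves moderate correlations possible.

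GF C was far from the others in this relation: Ciita was at 12.4 CPM there, the fourth highest of 8, while all 6 targets were at their lowest. It held 8.32 CPM of Cd74 for each CPM of Ciita, against 27.7 to 134 in the other 7 libraries. Without it r was 0.426 (H2-Aa) to 0.673 (H2-Eb1), with exact permutation p = 0.0966 to 0.355 and adjusted p = 0.320 to 0.355. With library size scaling r was -0.16 to 0.04, and without CV D -0.12 to 0.00, so its sign depended on these choices.

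**Figure D3:**
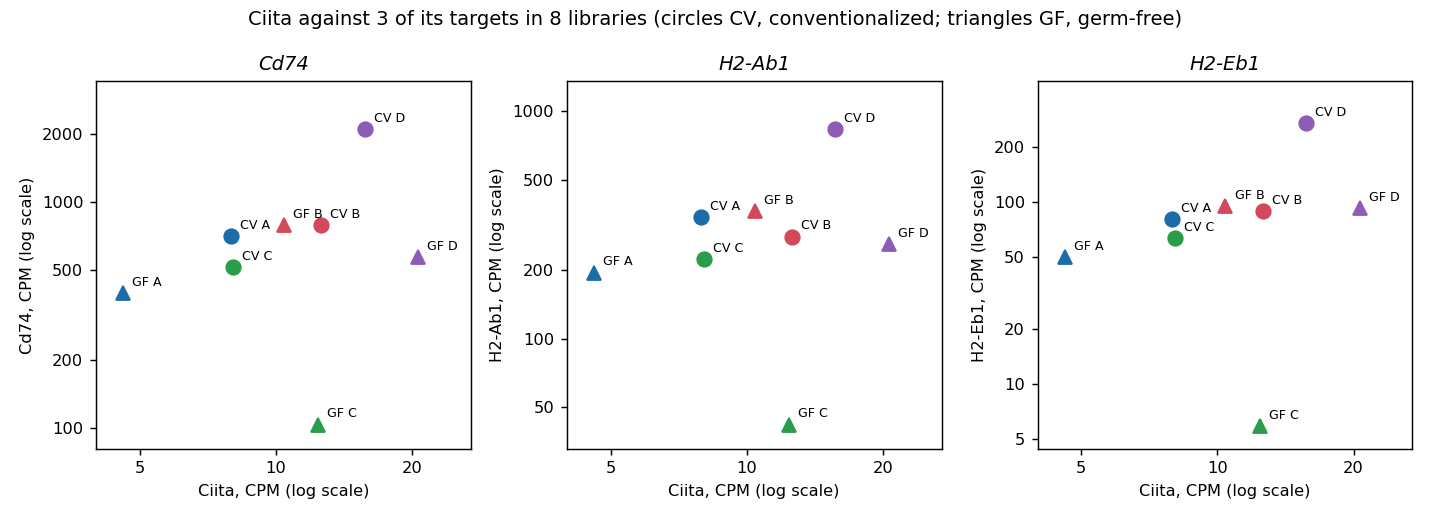
Ciita against Cd74, H2-Ab1 and H2-Eb1 in 8 libraries, in CPM on log axes; circles (CV) are conventionalized, triangles (GF) germ-free and colours littermate pairs. GF C lies far below the rest at a Ciita level of 12.4 CPM, and GF D has the highest Ciita level, 20.6 CPM, without the highest targets.

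Within littermate pairs the directions of Ciita and its targets mostly differed. In pair A Ciita was 0.73 higher in the conventionalized animal and the targets 0.34 to 1.33 higher. In pair B Ciita was 0.26 higher, while 5 of the 6 targets were below 0 (-0.42 to 0.15). In pairs C and D Ciita was lower (-0.59 and -0.38), whereas the targets were 1.96 to 3.42 and 1.39 to 2.11 higher. The sign of Ciita was that of the target in 1 of 4 pairs for 5 targets and in 2 of 4 for H2-DMb1. With 4 pairs an exact test by sign flips within pairs cannot go below p = 0.125.

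Leukocytes make far more class II than epithelium, so their markers were read in the same libraries. Of 30 leukocyte markers 0 reached the minimum for testing, and 31 of their 240 values were 0. Their summed level was 35.4, 58.7, 65.5 and 15.3 CPM in CV A to CV D and 60.8, 46.2, 76.1 and 58.4 CPM in the germ-free ones, so the groups overlapped. By cell type the sums ran from 1.64 to 23.1 CPM for dendritic cell markers, 3.31 to 13.1 for macrophage, 2.83 to 11.5 for B cell, 2.73 to 18.7 for T cell and 4.21 to 26.001 for pan-leukocyte markers. Of the 6 dendritic cell markers Itgax and Ccr7 were at 0 in 4 libraries each, whereas Flt3 (0.267 to 11.8 CPM), Zbtb46, Xcr1 and Cd209a were above 0 in all 8. The highest single marker value was 19.5 CPM, for Ptprc (CD45) in GF C. CV D had the highest class II sum and the lowest leukocyte sum, and GF C, the lowest library for many genes, the reverse. The part of leukocyte RNA in the class II values was not tested, and sums of different genes do not give it. Of 3 endothelial markers 1 was tested, Pecam1 (CD31), against which cells were gated. It fell from 19.9 ± 5.69 CPM in germ-free to 4.999 ± 3.34 CPM in conventionalized animals (SD, n = 4, adjusted p = 0.0218 by limma). Kdr (means 5.21 and 4.31 CPM) and Cdh5 (1.88 and 0.418 CPM) were below the minimum for testing. In conventionalized littermates Kdr was lower in 2 pairs and higher in 2, and Cdh5 was lower in 4. The part of endothelial RNA in the class II values was not tested.

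**Figure D4:**
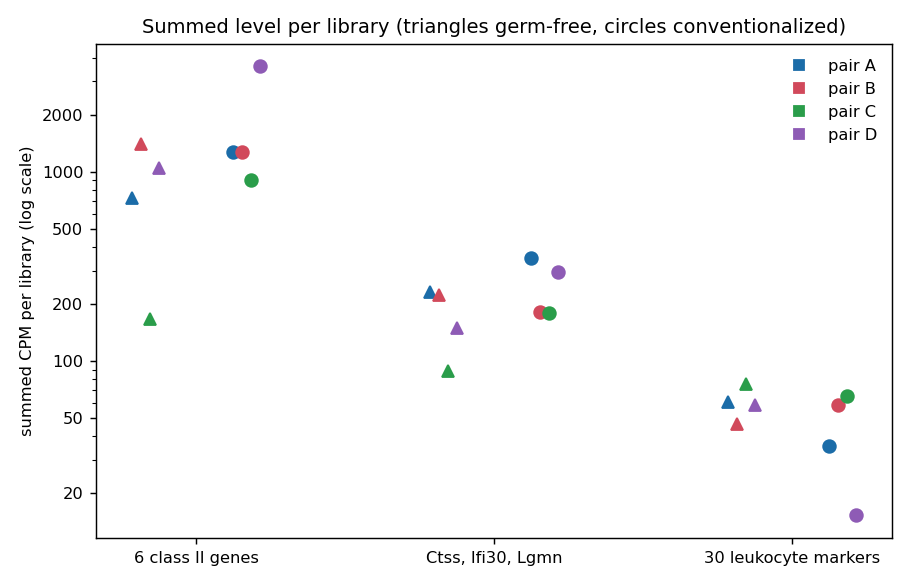
Summed CPM per library (log scale) of the 6 targets of Ciita, the 3 processing enzymes and 30 leukocyte markers; triangles are germ-free and circles conventionalized libraries, coloured by pair. The class II sums run from 168 to 3601 CPM and the leukocyte sums from 15.3 to 76.1 CPM. These are sums of different genes, so their heights do not give a share of leukocyte RNA.

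Upstream of the class II genes, no gene of the route to Ciita or of the complex that recruits it passed the test. The list held genes of the interferon-gamma receptor and its kinases, interferon regulatory factors, and the RFX, NF-Y and CREB subunits. Limma called 0 of its 11 tested genes higher and 0 lower (3 at an unadjusted p under 0.05, all higher), with 9 positive fold changes and a median of 0.54. Over all tested genes 27.8% were at an unadjusted p under 0.05, 70.2% had a positive fold change and the median was 0.32, so these shares were near the background. The receptor chain Ifngr2 was at 224, 154, 133 and 199.7 CPM in conventionalized and at 101, 142, 48.1 and 73.6 CPM in germ-free libraries. Its log2 fold change was 1.04 (SE 0.35, adjusted p = 0.0984 by limma), and with the littermate block it rose (adjusted p = 0.0392 by limma). It also passed without GF B (adjusted p = 0.0476), but not with the block and without pair C (log2 fold change 0.91, adjusted p = 0.153).

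The receptor chain Ifngr1 had a log2 fold change of 0.78 (adjusted p = 0.165 by limma) and the NF-Y subunit Nfyc one of 0.73 (adjusted p = 0.141 by limma). The RFX subunit Rfxank had one of 0.70 (adjusted p = 0.190 by limma). These 4 genes, and also Irf1 and Irf2 of the same list, were each higher in the conventionalized littermate of every pair. The share of all tested genes higher in every pair was not counted. Rfx5, a DNA-binding subunit of the RFX complex, Nfya and the feedback inhibitor Socs1 were below the minimum for testing.

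**Figure D5:**
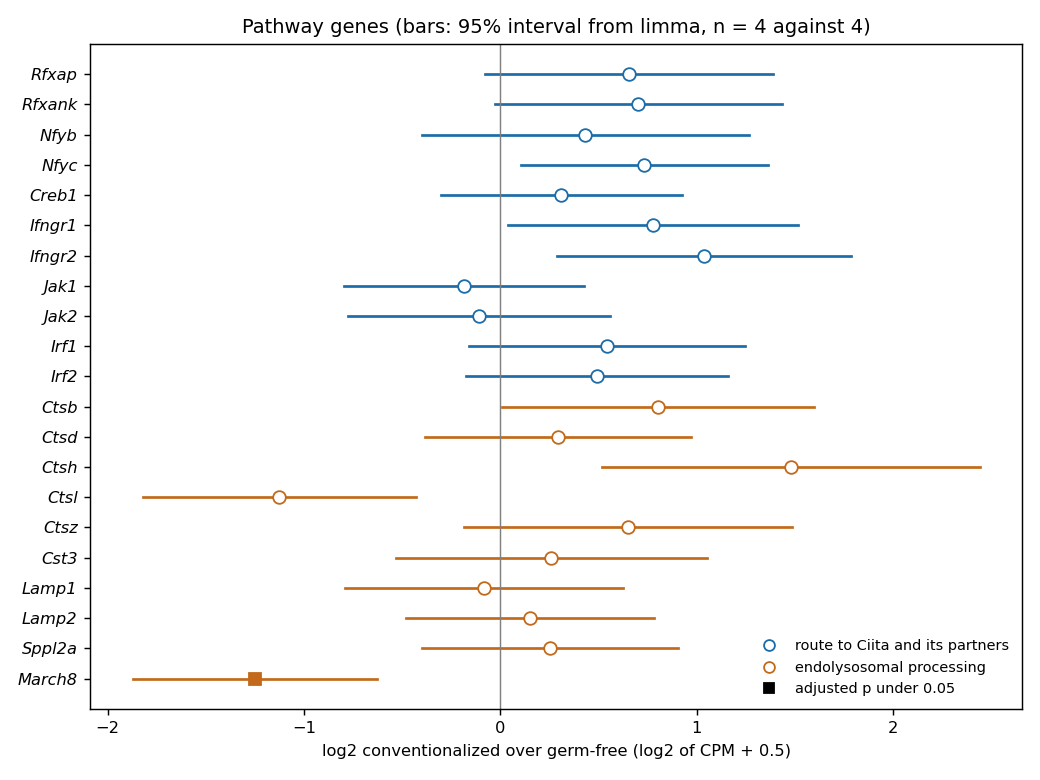
Log2 fold change of conventionalized over germ-free with limma's 95% interval for 11 genes of the route to Ciita (blue) and 10 of endolysosomal processing (orange). The filled square marks the 1 gene called, March8 at -1.25.

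Among other class II and endolysosomal genes, 1 of 10 tested fell, 0 rose, and the median was 0.26. Of all tested genes 3.76% were called lower and 1.16% higher, and the median was 0.32. At an unadjusted p under 0.05 by limma 4 of the 10 were counted, against 27.8% of all tested genes. The gene that fell was March8, a membrane-bound ubiquitin ligase whose substrates include surface class II molecules. It was at 71.3, 52.3, 48.6 and 35.5 CPM in conventionalized and at 122, 99.9, 160 and 108 CPM in germ-free libraries. The groups did not overlap, as in 5.88% of all tested genes in this direction. The log2 fold change of March8 was -1.25 (SE 0.29, adjusted p = 0.0255 by limma). The adjusted p was 0.0781, 0.0712 and 0.0942 without CV B, CV C or CV D, 0.0784 without GF A, 0.0773 with no filter, and 0.0554 with the block and without pair C.

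The lysosomal cathepsins did not go one way. Ctsh, an aminopeptidase, had a log2 fold change of 1.48 (SE 0.45, adjusted p = 0.0748 by limma) and rose with the littermate block (adjusted p = 0.0210), also without pair C (1.16, adjusted p = 0.0471). It passed as well with library size only (0.0499), upper-quartile scaling (0.0461), and without GF B (0.0401) or GF C (0.0374), and not in the other fits. Ctsl, the endopeptidase that trims the invariant chain in thymic epithelium, had -1.13 (SE 0.32, adjusted p = 0.0624) and fell with the block (adjusted p = 0.0387), but not with the block and without pair C (adjusted p = 0.0637). It passed as well with library size only (0.0183), upper-quartile scaling (0.0472), without GF C (0.0169) or GF D (0.0497), and without both GF C and CV A (0.0194). Ctsl was thus opposite in sign to Ctss, and the groups did not overlap for either: Ctsl was at 68.6, 44.6, 79.7 and 99.5 CPM in conventionalized and at 202, 160, 171 and 101 CPM in germ-free libraries. Ctsb, a further cysteine protease, had 0.80 (adjusted p = 0.177 by limma). H2-Oa, H2-Ob, H2-Eb2, H2-DMb2 and March1 stayed below the minimum for testing. H2-Oa and H2-Ob form DO, the inhibitor of DM found in B cells.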

How the data were processed

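The authors deposited 1 normalized signal per gene and library. Trimmomatic 0.36, STAR 2.4.2a, DESeq2 1.12.4 and R 3.3.1 are named, with mm10, in the submitters' processing notes, and Salmon and edgeR in the series text. The values are not raw counts: in genes with 1 annotated transcript 99.8% were whole multiples (tolerance 0.02) of a step specific to the library, in genes with several 23.6%. All 10 members have several, so limma was used, as planned for such values. Approximate reads are values divided by the step. RNA input was 10 ng, without molecular identifiers named.

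TMM factors (trimming 30% of log ratios and 5% of intensities) gave CPM, and log2(CPM + 0.5) was tested with limma 3.58.1 (trend, robust, condition only) in R 4.3.3. A gene needed 10 CPM in 4 or more libraries, which 10053 genes had, and Benjamini-Hochberg adjusted p under 0.05 was called. The fit was tested on simulated data. Symbols, positions and exon lengths are from GENCODE M21 (GRCm38), in which 48058 genes matched.

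The labels name the littermate pair of each animal, and the pair as a block was an alternative. Deviations from group means correlated by 0.14, -0.16, 0.31 and -0.01 within pairs A to D. All 10 members were named, with the called genes and the 4 of lowest p among those reported in each of 2 pathway lists and the 5 genes of most similar pattern. A listed gene of the route to Ciita is not reported here. Genes below the minimum, Pecam1, Ptprc and the dendritic cell markers were named after their values were seen. The members and lists were chosen with earlier results of these data known.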

Additional observations from a re-analysis of the deposited data

Results flagged for a closer look

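Each of the 10 genes was checked in both groups of 4 libraries, 20 sets in all, for a library whose log2 level lay far from the rest, by Dixon's ratio of the gap to the range. Chance gives about 1 such library in 20 sets, and 2 were found. H2-DMb1 was at 1.23 CPM in GF C, against 20.4 to 26.5 CPM in the other germ-free libraries. Lgmn was at 21.3 CPM in GF A, against 14.5 to 15.4 CPM in the others.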

How the results depend on the processing

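Of 178 refits of single members, 168 kept the direction and the side of the threshold. The count of members called higher was 1 (Ctss) with the littermate pair as a block, 1 with the block and without pair C, which was added after the data were seen, and 0 to 1 when 1 library was left out. Apart from Ctss, the block changed no call among the members. The count called lower and the count of targets correlated with Ciita were 0 in every alternative run. With pair means taken off, r of Ciita with its targets was -0.60 to -0.36, where sign flips within pairs give a smallest exact permutation p of 0.125. The log2 fold change of Ciita was -0.0117 with a pseudocount of 2, -0.22 with library size only and -0.37 to 0.31 when 1 library was left out. Without GF C, and with the block and without pair C, Ciita was not tested because it missed the minimum. That of Ifi30 was -0.11 without the 2 libraries that stand apart, GF C and CV A. For the 6 targets the fold changes stayed positive in all 18 alternatives, and without GF C they were 0.63 (Cd74), 0.36 (H2-Aa), 0.44 (H2-Ab1), 0.46 (H2-Eb1), 0.66 (H2-DMa) and 0.41 (H2-DMb1). Depth limits Ciita, at about 36 to 235 reads a library, and in GF C also H2-DMb1 (about 11 reads) and Ctss (about 14).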
